A study of Equus caballus with 2 samples.

Results

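Chromosomes 5 and 18 of the horse carried the highest read depth in the sarcoid relative to skin, without a methylation fall as large as that of chromosomes 7, 12 and 25. They were chosen by these measures. The members were all CpGs of both chromosomes with at least 10 reads in each library, 29960 on chromosome 5 and 17561 on chromosome 18. Together these were 47521 of 877053 CpGs on 31 chromosomes. Of these, 47273 were analysed, 29715 on chromosome 5 and 17558 on chromosome 18, and the other 248 were left out for extreme coverage. Since depth and methylation difference chose the members, every value of the sarcoid against skin below is a description of these libraries and supports nothing beyond them.

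The study compared 1 library of sarcoid (tumour tissue) with 1 library of skin taken away from the tumour, both from horse 1, by reduced representation bisulfite sequencing (RRBS). The labels named no treatment, strain or age for either tissue. With a single library for each tissue no value has a replicate error, and every test compares 2 libraries and not 2 conditions. A library of tissue mixes the DNA of all cells, so a large difference in few cells and a small difference in many cannot be told apart. The skin library held 48650606 reads over cytosines and the sarcoid library 35970547. Positions are those of the deposited files, whose build is not given in the sources used here. No genome or annotation of that build was used here, so sequences and genes of the regions are not given.

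Equine sarcoid is a skin tumour of fibroblasts that is associated with bovine papillomaviruses. Vertebrate DNA is methylated at most CpGs, the dinucleotide in which a cytosine is followed by a guanine, while dense clusters of CpGs, many of which lie at gene promoters, usually stay unmethylated. RRBS cuts DNA at CCGG, which enriches such clusters, and bisulfite converts unmethylated cytosines so that they are read as T. The number of reads at a site rises with the amount of its DNA in the sample, and it also depends on how well its fragment was amplified and aligned. Chromosome 18 of the horse is acrocentric, with its centromere near one end, and chromosome 5 has arms on both sides of its centromere.

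Both chromosomes had more sarcoid reads, relative to skin, than any other. Depth was the log2 of sarcoid over skin reads at the CpGs used, after taking off the ratio typical of their CpG density (the count of CpGs listed in the 1 kb tile) and with 0 at the median chromosome. It was 0.32 on chromosome 18 (1.25-fold) and 0.31 on chromosome 5 (1.24-fold). Chromosome 6 followed at 0.29, just outside the choice, and chromosomes 7, 12 and 25 lay at 0.25, 0.23 and 0.25. The 21 chromosomes outside the 10 of deeper sarcoid coverage ranged from -0.10 to 0.13. Chromosomes 5 and 18 took ranks 1 and 2 of 31 under all 9 ways of computing the depth that were tried, although their order changed at a minimum of 20 reads.

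**Figure D1:**
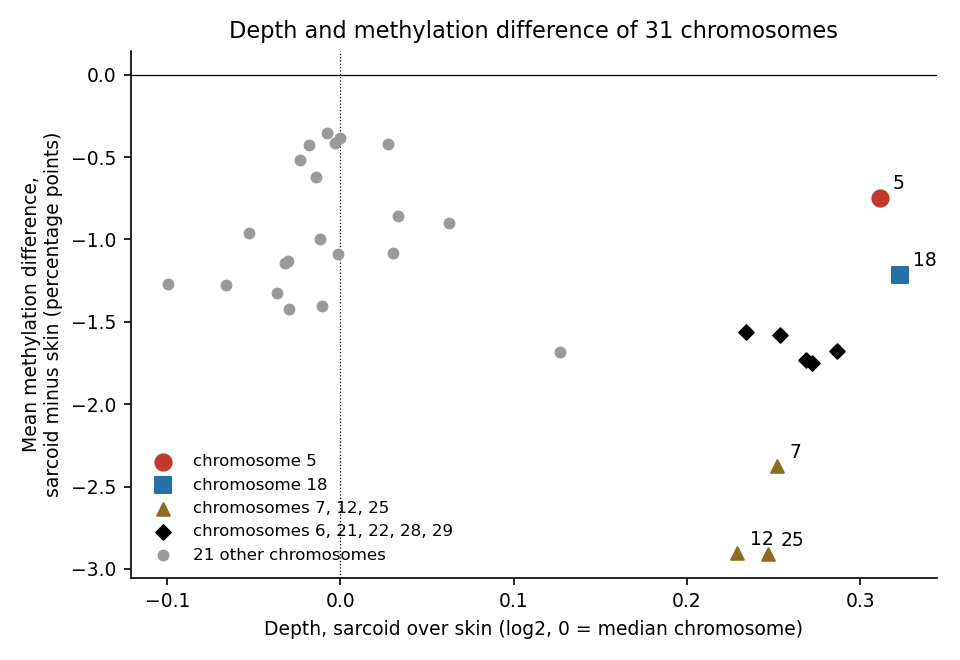
Each point is 1 of 31 chromosomes, with the depth of sarcoid over skin (log2, 0 at the median chromosome) on the x axis and the mean methylation difference in percentage points on the y axis. Chromosomes 5 (0.31, -0.746 points) and 18 (0.32, -1.21 points) lie furthest to the right, above chromosomes 7, 12 and 25 at -2.38, -2.90 and -2.91 points.

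Each library was also taken alone. In the sarcoid library, reads per CpG adjusted for density were 0.28 (log2) above the median chromosome on chromosome 5 and 0.25 above it on chromosome 18, ranks 1 and 2 of 31. In the skin library the same measure was 0.02 on chromosome 5, rank 9, and -0.03 on chromosome 18, rank 24. Both skin values lay within the range of -0.04 to 0.09 of the 21 other chromosomes, and both sarcoid values above their range of -0.11 to 0.08. On both chromosomes the sarcoid value was thus the larger in size, and on chromosome 18 the skin value below 0 added to the ratio. Over all listed CpGs, including those left out above, chromosome 5 held 3.71% of the reads over cytosines in skin and 4.39% in the sarcoid. Chromosome 18 held 1.84% and 2.25%. A read over several CpGs counts at each of them in these shares. Fewer CpGs dropped out of the sarcoid library as well: 6.80% of the CpGs of chromosome 5 and 7.0% of those of chromosome 18 were listed in skin only, against 9.96% on the 21 other chromosomes.

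**Figure D2:**
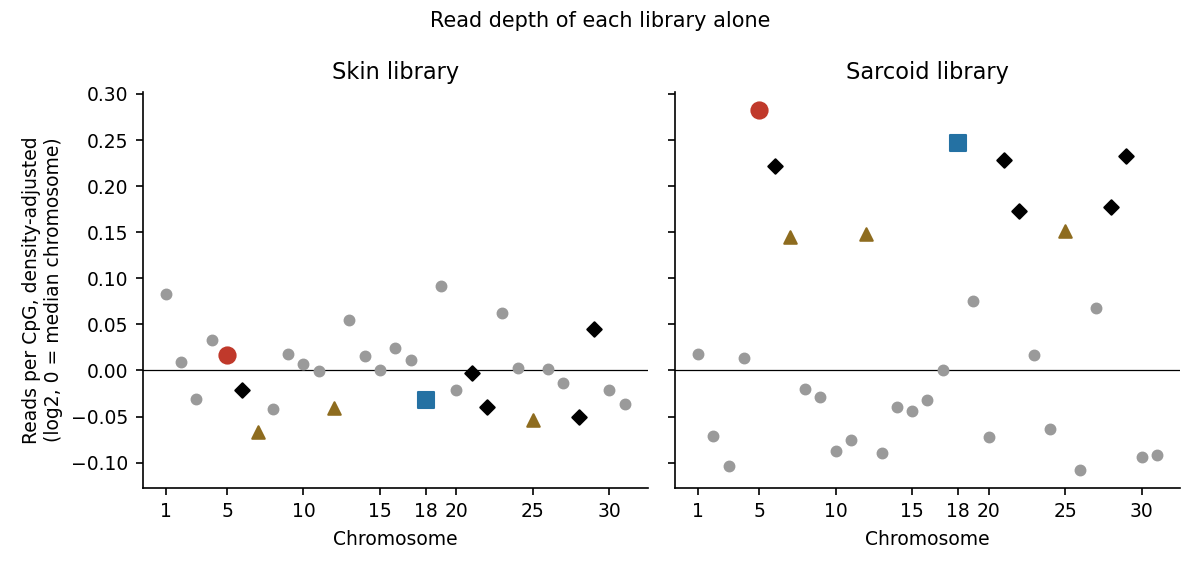
Reads per CpG of each chromosome in 1 library, adjusted for CpG density and shown as log2 with 0 at the median chromosome, for skin (left) and sarcoid (right). Chromosomes 5 and 18 (large red circle and blue square) lie within the other chromosomes in skin, at 0.02 and -0.03, and above all of them in the sarcoid, at 0.28 and 0.25; brown triangles are chromosomes 7, 12 and 25 and black diamonds chromosomes 6, 21, 22, 28 and 29.

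The higher depth ran along the whole of chromosome 5 and nearly the whole of chromosome 18. Of 100 windows of 1 Mb on chromosome 5, 89 held at least 50 CpGs, and all 89 had a depth above 0 with a median of 0.36 (SD 0.16 over windows, range 0.03 to 0.78). On chromosome 18, 64 of 66 such windows were above 0, with a median of 0.35 (SD 0.23, range -0.05 to 0.95). The other chromosomes of deeper sarcoid coverage shared this. On chromosomes 7, 12 and 25, 159 of 160 such windows were above 0, with a median of 0.28. On chromosomes 6, 21, 22, 28 and 29, 242 of 248 were above 0, with a median of 0.31. Of the 1415 windows of the 21 other chromosomes, 781 (55.2%) were above 0, with a median of 0.02. The SD over windows of a chromosome was 0.13 to 0.29 among these 21, with a median of 0.19. Chromosomes 5 and 18 lay within that range, chromosome 5 below its median and chromosome 18 above it. The other 11 windows of chromosome 5 and 17 of chromosome 18, with fewer CpGs, ranged from 0.04 to 1.13 and from 0.10 to 1.11.

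Windows with the most CpGs had the lowest median depth on all sets of chromosomes, although on chromosome 18 the fall with CpG number was not steady. On the 21 other chromosomes the median depth was 0.20 in windows of 50 to 99 CpGs, 0.08 in those of 100 or more but under 300 and -0.04 in those of 300 or more. Chromosome 5 had 0.48, 0.37 and 0.28 in these classes, and chromosome 18 had 0.35, 0.41 and 0.29. In the windows with 300 or more CpGs, where values scattered least, chromosomes 5 and 18 therefore stood 0.32 and 0.33 above the 21 others. The SD over such windows was 0.14 on chromosome 5 (32 windows) and 0.11 on chromosome 18 (17 windows), against 0.10 over 590 windows of the others.

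Among windows with at least 50 CpGs, the deepest of chromosome 5 were those from 84000001 to 85000000 (0.78, 78 CpGs) and from 27000001 to 28000000 (0.70, 214 CpGs), and the shallowest those from 15000001 to 16000000 (0.03, 472 CpGs) and from 20000001 to 21000000 (0.05, 187 CpGs). On chromosome 18 the deepest of such windows ran from 40000001 to 41000000 (0.95, 198 CpGs) and from 15000001 to 16000000 (0.90, 50 CpGs). Its shallowest were those from 3000001 to 4000000 (-0.05, 1200 CpGs) and from 22000001 to 23000000 (-0.02, 53 CpGs). Neighbouring windows moved together around some of these. On chromosome 18 all 7 windows from 39000001 to 46000000, 2 of them with fewer than 50 CpGs, lay between 0.55 and 0.95, and the window from 21000001 had 0.02 beside that from 22000001. On chromosome 5 the windows from 14000001 and 16000001 had 0.07 and 0.11 on either side of the shallowest. The window of chromosome 18 from 40000001 had 6468 skin and 8514 sarcoid reads over its CpGs, and that from 3000001 had 66501 and 45560.

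Depth was lower toward the ends than between them on both chromosomes. On chromosome 5 it was 0.27 in the first 5 Mb, 0.21 in the last 5 Mb and 0.33 between. On chromosome 18 it was 0.15 in the first 5 Mb, 0.28 in the last 5 Mb and 0.37 between. All of these lay above the highest of the 21 other chromosomes taken whole, 0.13. Those 21 were what remained after the chromosomes of deeper sarcoid coverage were set apart, so this order was partly fixed by the choice. Their own ends were not taken, and their 1 Mb windows with at least 50 CpGs ranged from -0.48 to 1.03. Whether the ends here were deeper than ends of the 21 was therefore not tested. The ends were also richer in CpGs per Mb. On chromosome 5 they held 3718 and 2920 CpGs, against 23077 from 5010307 to 94611831. Windows with more CpGs were shallower on this chromosome, as given above, and the part of CpG number in the lower depth of the ends was not tested. The 1 Mb windows of the first 5 Mb of chromosome 18 ran in order 0.21, 0.14, 0.33, -0.05 and 0.40. The window from 3000001, the lowest of them, held 1200 of the 3011 CpGs of the first 5 Mb. In 5 equal stretches from start to end, chromosome 5 had depths of 0.28, 0.34, 0.32, 0.38 and 0.27, and chromosome 18 had 0.23, 0.40, 0.45, 0.37 and 0.35. The ends were shallower than the middle on chromosomes 7, 12 and 25 too, with first and last 5 Mb at 0.23 and 0.25 on chromosome 7, 0.24 and 0.18 on chromosome 12 and 0.23 and 0.23 on chromosome 25, against 0.26 between the ends on each.

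**Figure D3:**
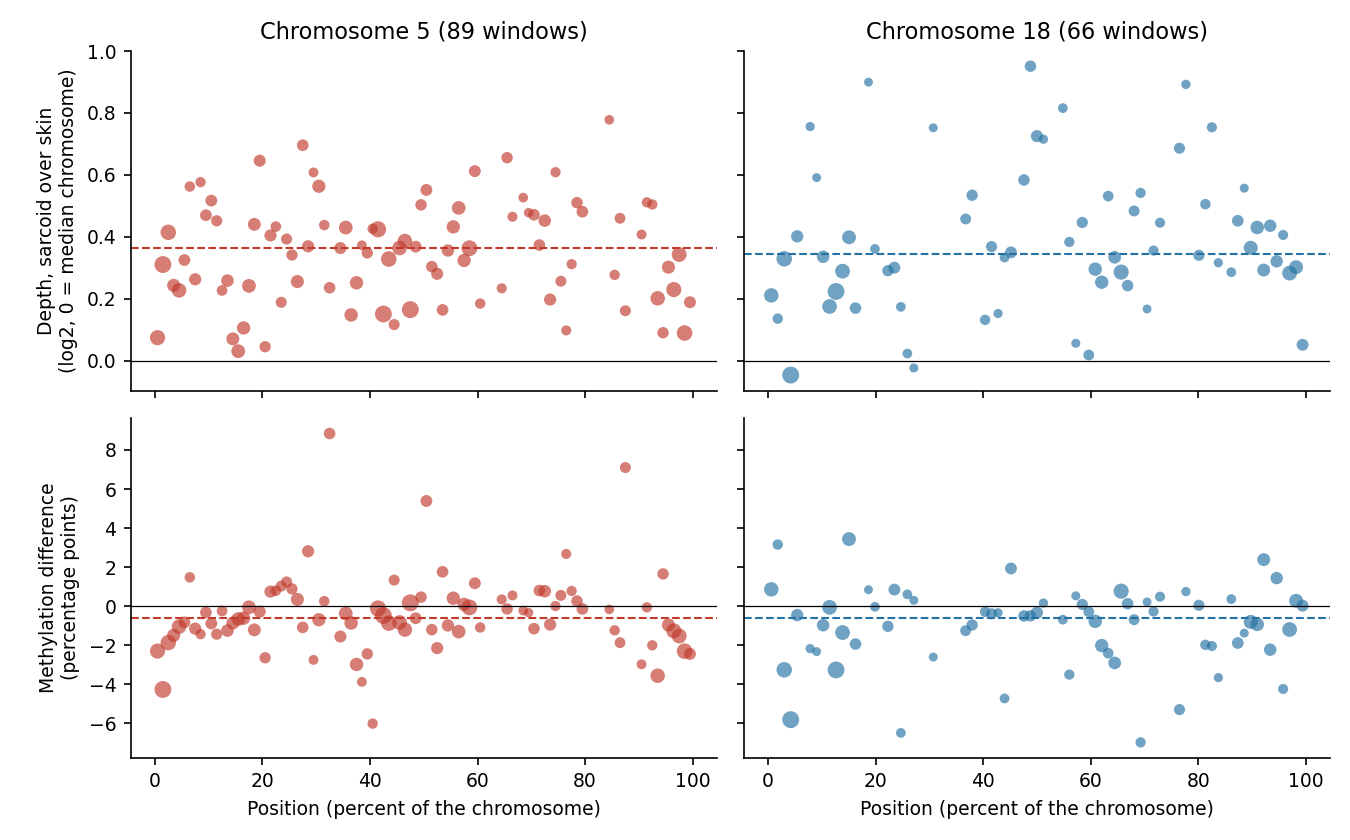
Windows of 1 Mb with at least 50 CpGs along chromosomes 5 (left, 89 windows) and 18 (right, 66 windows), by position in percent of the chromosome; the upper panels give depth of sarcoid over skin (log2) and the lower panels the mean methylation difference in percentage points. Circle area rises with the number of CpGs, the dashed line is the median of the windows, and 2 windows of chromosome 18 but none of chromosome 5 lie below a depth of 0.

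Chromosome 5 also held an unusual share of the CpGs of extreme coverage. Of 1324 such CpGs in the genome, 245 (18.5%) were on chromosome 5 and 3 on chromosome 18. Of the 245, 186 lay between 36050351 and 36754206, with a median of 1020.5 reads in skin and 629 in sarcoid and mean levels of 62.5% and 59.9%. Their depth, computed as above, was 0.14. Another 15 from 16138370 to 16138554 had 384 reads in skin and 543 in sarcoid at the median and a depth of 1.00. With these CpGs kept, the depth of chromosome 5 was 0.31 as before.

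Methylation was slightly lower in the sarcoid on both chromosomes. Over the CpGs of chromosome 5 the mean was 36.6% in skin against 35.8% in the sarcoid, which is -0.746 points, and over those of chromosome 18 it was 41.8% and 40.6%, -1.21 points. By size of the fall these differences took ranks 24 and 15 of 31 chromosomes, where chromosomes 7, 12 and 25 together differed by -2.66 points and the 21 others by -0.936. Skin methylation of chromosome 5 was the second lowest of the 31 chromosomes. On chromosome 5, 35.2% of CpGs were lower in the sarcoid, 32.5% higher and 32.3% equal, and on chromosome 18 these shares were 38.8%, 34.4% and 26.8%. CpGs at the limit of reads behaved like the rest: 1411 members with exactly 10 reads in the shallower library differed by -1.02 points, and 1529 CpGs just outside, with 9 reads, by -1.08.

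The share of CpGs with little methylation was higher in the sarcoid. CpGs at 20% or less made up 51.0% in skin and 52.2% in sarcoid on chromosome 5, and 43.5% and 45.3% on chromosome 18. On chromosomes 7, 12 and 25 the corresponding shares were 33.5% and 37.3%. CpGs were placed in classes by their level in skin, with skin reads split at random so that the reads that set the class were not those compared. In the class over 60% to 80% the sarcoid differed by -3.51 points on chromosome 5 and -4.69 on chromosome 18, against -4.04 on the 21 others and -6.27 on chromosomes 7, 12 and 25. In the class over 40% to 60% the differences were -0.676 and -0.396 points, against -0.282 and -3.01. At these starting levels the values of chromosomes 5 and 18 lay nearer to the 21 others than to chromosomes 7, 12 and 25. The methylation fall was part of the choice of the chromosomes, so this is a description without a test, and nothing is concluded from it. With each library thinned to 10 reads per CpG, 4.27% of CpGs on chromosome 5 and 5.53% on chromosome 18 were at least 40 points lower in the sarcoid. That share ranged from 3.78% to 6.28% over the 21 others and from 6.74% to 8.21% over chromosomes 7, 12 and 25.

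The difference depended on CpG density, and in tiles of 21 to 40 CpGs both chromosomes had a higher mean in the sarcoid, as had some others. Density counted the CpGs that either library lists in a 1 kb tile. In tiles of 5 or fewer CpGs the mean of chromosome 5 was 59.3% in skin and 57.2% in sarcoid (-2.13 points) and that of chromosome 18 was 61.8% and 59.6% (-2.17 points), close to the median of -2.05 over 31 chromosomes. In tiles of 6 to 10 CpGs the chromosomes parted, at -0.745 and -2.18 points, and in tiles of 11 to 20 CpGs at -0.303 and -1.37. In tiles of 21 to 40 CpGs the difference was 0.125 points on chromosome 5 (11.85% in skin, 11.97% in sarcoid) and 1.06 points on chromosome 18 (14.6% and 15.7%). The value of chromosome 18 was the highest of 31 chromosomes in that class, where the median was -0.584. Chromosome 5 ranked 25 of 31 from the most negative. In that class 23 of the 31 chromosomes were lower in the sarcoid. Of the 21 others 15 were lower, and the highest of them stood at 0.807 points. In tiles of over 40 CpGs the differences were -0.266 and -0.125 points.

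The positive differences in tiles of 21 to 40 CpGs rested in part on few tiles. Without the 4 tiles of over 20 CpGs called higher on chromosome 5 the difference of its class turned to -0.467 points, and without the 3 such tiles of chromosome 18 it was 0.379. At a minimum of 20 reads per CpG the values were 0.0926 and 0.726. Depth was raised in every density class, by 0.25 to 0.37 on chromosome 5 and by 0.27 to 0.38 on chromosome 18, relative to the class over all chromosomes and with 0 at the median chromosome.

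**Figure D4:**
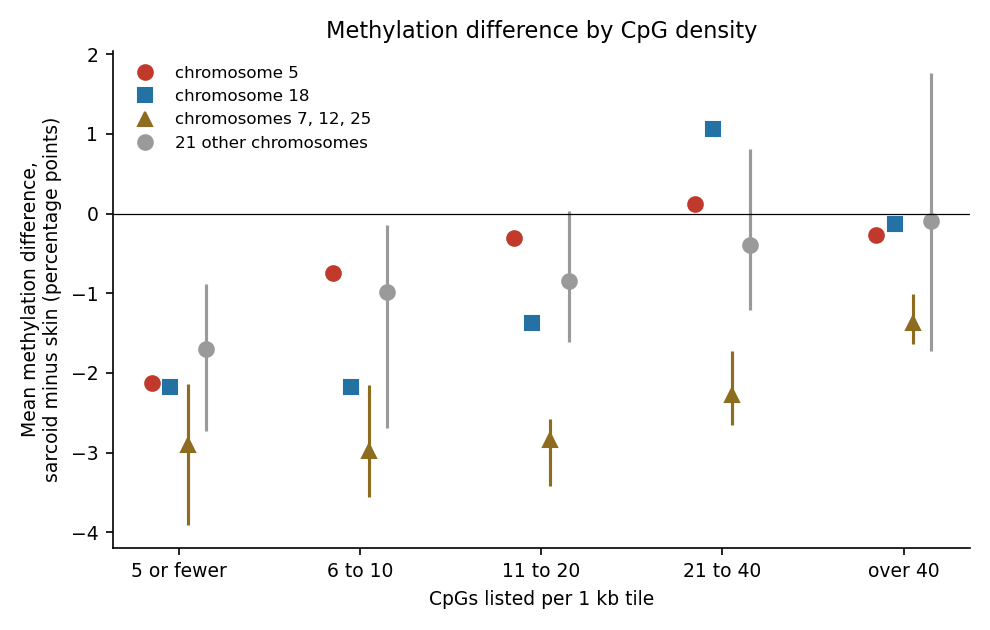
Mean methylation difference, sarcoid minus skin in percentage points, by how many CpGs a 1 kb tile lists, for chromosomes 5 and 18, chromosomes 7, 12 and 25 and the 21 other chromosomes; points are means over CpGs and lines the range over the chromosomes of a set. In tiles of 21 to 40 CpGs chromosomes 5 and 18 lie above 0, at 0.125 and 1.06 points, where chromosomes 7, 12 and 25 lie at -2.28. The 21 others range from -1.21 to 0.807 points there.

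Methylated and unmethylated reads of each CpG were compared by a two-sided Fisher's exact test. A CpG was called where its q, the p-value with Benjamini-Hochberg adjustment over all 875729 CpGs, was below 0.01 and the libraries lay 25 or more points apart. On chromosome 5, 467 CpGs (1.57%) had a call for a lower and 323 (1.09%) for a higher level in sarcoid, and on chromosome 18, 419 (2.39%) and 221 (1.26%). Over all chromosomes 1.89% were called lower and 0.954% higher, and 2.84% in either direction. The same contrast chose the chromosomes, so nothing is read from these shares. Calls also depend on depth, which was higher here. In tiles of 21 to 40 CpGs the calls ran the other way, with 20 lower and 83 higher on chromosome 5 and 25 lower and 64 higher on chromosome 18, against 2184 lower and 1347 higher in that class over all chromosomes. As shares of the CpGs in the class these were 0.288% lower and 1.20% higher on chromosome 5, 0.746% and 1.91% on chromosome 18, and 1.17% and 0.721% over all chromosomes. Of the 83 CpGs called higher on chromosome 5, 56 lay in 4 tiles, and of the 64 on chromosome 18, 25 lay in 3 tiles, where neighbouring CpGs share reads. With 10 reads per CpG and library this test called 0 CpGs on either chromosome, while 425 lower and 292 higher CpGs of 29715 on chromosome 5, and 361 and 210 of 17558 on chromosome 18, had an unadjusted p below 0.05.

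Tiles of 1 kb with at least 3 CpGs were tested in the same way on summed reads, with q over all 103489 tiles. Of 3389 tiles on chromosome 5, the sarcoid had a lower level in 127 called tiles and a higher one in 73, and of 2093 on chromosome 18, in 119 and 49. The background over all chromosomes was 4.11% lower and 2.28% higher, or 6.39% in either direction, and the shares here were 3.75% and 2.15% on chromosome 5 and 5.69% and 2.34% on chromosome 18. The median difference of called tiles was -32.9 and 32.8 points on chromosome 5 and -33.4 and 31.1 on chromosome 18. Of the tiles listing over 20 CpGs, 2 of 368 on chromosome 5 were called lower and 4 higher, and 2 of 185 on chromosome 18 lower and 3 higher, where the background of such tiles was 1.64% lower, 0.86% higher and 2.5% in either direction. One read can cover several CpGs and is then summed several times, and reads carried no molecular identifiers. Tile q-values are therefore too small and the Wilson 95% intervals below too narrow, and both cover counting error only.

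Among windows with at least 50 CpGs, the one with the largest positive difference on chromosome 5 ends at 33000000. The mean of its 207 CpGs was 28.3% in skin against 37.2% in sarcoid, and 33 of them were called higher and 1 was called lower. Within it the tile from 32270001 to 32271000 rose from 8.59% to 56.3% (1990 and 1746 reads, intervals 7.44 to 9.91 and 54.0 to 58.6). Its 32 CpGs lay in 3 stretches, each within the 75 bp of 1 read. The 7 CpGs from 32270001 to 32270063 went from 6.86% in skin to 47.1% in sarcoid, at 25 reads per CpG in skin and 55 to 56 in sarcoid. The 11 CpGs from 32270090 to 32270160 went from 6.09% to 49.4%, at 38 to 39 and 30 to 31 reads. The 14 CpGs from 32270596 to 32270669 went from 9.58% to 62.2%, at 95 to 101 and 70 to 74 reads.

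All 3 stretches thus had much higher levels in the sarcoid, each at its own number of reads. The single CpG of the tile that was not higher, at 32270160, read 0% in both libraries over 38 and 30 reads, all of the plus strand. It is the last CpG of its stretch. At 32270669, the last CpG of the next stretch, 0 of 26 plus strand and 30 of 44 minus strand sarcoid reads were methylated. Whether the 0% at 32270160 holds on the minus strand could not be seen. The rise was present on either strand: plus strand reads gave 10.3% in skin and 55.8% in sarcoid at 25 CpGs, and minus strand reads 6.58% and 57.0% at 21 CpGs. Of 14 CpGs covered on both strands, 2 had strands 30 or more points apart in a library. Toward lower positions the sarcoid level was lower. The tile from 32268001 to 32269000, with 34 CpGs, had 3.71% in skin and 3.07% in sarcoid, and the one from 32269001 to 32270000 had 7.92% and 14.2%. Within the latter the 8 CpGs from 32269493 to 32269554 had 6.82% and 12.7%, and the 4 from 32269807 to 32269827 had 11.7% and 29.7%. Those 4 CpGs had 16 sarcoid reads each, all of the minus strand and possibly the same reads, and 0 of them were called. The next tested tile on the other side, from 32280001, had 28.2% and 46.8% (q = 0.027) and was not called.

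The other tested tiles of the same window were mostly alike in both libraries. Besides the tile from 32270001, 2 were called higher: that from 32004001 rose from 42.9% to 75.1% over 9 CpGs, and that from 32112001 from 43.1% to 80% over 3 CpGs with 16 to 17 reads each in the sarcoid. The latter was no longer called when a read counted about once (q = 0.0234). The tile from 32355001 was called lower, at 60% and 14.3%, and also lost its call when a read counted about once (q = 0.0148). Of the window's mean difference of 8.84 points, 1.94 points remained without the tile from 32270001, and -0.367 without all 3 tiles called higher. Depth of the window was 0.24, below the median of the chromosome.

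Another tile of chromosome 5, the one ending at 58151000, rose from 6.39% to 55.8% (736 and 217 reads, intervals 4.84 to 8.39 and 49.1 to 62.2). Only 11 of its 27 listed CpGs had 10 reads in both libraries. Of these, 10 lay between 58150663 and 58150736, a span of 74 bases within 1 read length, and all their sarcoid reads came from the minus strand, 14 to 19 per CpG. At these 10 CpGs the level was 2.55% in skin and 55.2% in sarcoid, with 9 called higher singly. The sarcoid level of these 10 CpGs may thus rest on the same 14 to 19 reads. The remaining CpG, at 58150997, had 42.9% and 58.1% over 70 and 43 reads and was not called.

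The neighbours of this tile were covered better, and their summed levels differed in the same direction by less. The tile from 58149001 to 58150000 had 3.31% over 1358 reads in skin and 12.1% over 1104 in sarcoid, with 23 of 24 CpGs higher. The tile from 58151001 to 58152000 had 44.0% and 58.3%, with 8 of 10 CpGs higher. Neither was called: their q-values by Fisher's exact test were 1.64e-15 and 1.25e-05, or 0.0199 and 0.0994 with a read counted about once, and both missed the limit of 25 points. In the latter the 3 CpGs from 58151276 to 58151345 had 46.7% and 47.8%. One tile further, from 58148001 to 58149000, the level was 6.46% in skin and 2.40% in sarcoid, and from 58147001 it was 2.28% and 1.85%. The tile ending at 58151000 was among the shallowest of those named in the sarcoid relative to skin, with an unadjusted log2 ratio of reads of -1.76, against -0.30 and -0.64 in the neighbours and -0.15 over the window. That window, ending at 59000000, had a depth of 0.36 and means of 26.5% and 26.4% over 902 CpGs.

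Chromosome 18 also had dense tiles called higher. The tile from 12185001 to 12186000 rose from 17.2% to 63.4% (662 and 350 reads, intervals 14.5 to 20.3 and 58.3 to 68.3), with 19 of 19 CpGs higher and 9 called singly. Its sarcoid level went up along the tile, from 52.6% at the 5 CpGs from 12185493 to 12185557 to 59.8%, 69.0% and 93.2% in the 3 stretches of at most a read length that followed, which adjoin and can share reads, while skin stayed between 12.9% and 23.97%. The last stretch, of 4 CpGs, held 11 sarcoid reads per CpG. Over the tile, sarcoid reads gave 57.7% on the plus strand (9 CpGs) and 75.9% on the minus strand (12 CpGs). The part of strand in the change along the tile was not tested. The tile lies in the window from 12000001 to 13000000. Among windows with at least 50 CpGs, that window had the largest positive difference of chromosome 18. Its 492 CpGs averaged 23.3% in skin against 26.7% in sarcoid, with 35 calls for higher and 6 for lower CpGs. The other two dense tiles called higher on chromosome 18 differed by less. That from 8998001 went from 8.73% to 37.8% over 16 CpGs, and that from 1034001 from 47.5% to 76.5% over 32 CpGs. In the tile from 1034001, 26 CpGs were higher and 5 lower in the sarcoid.

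**Figure D5:**
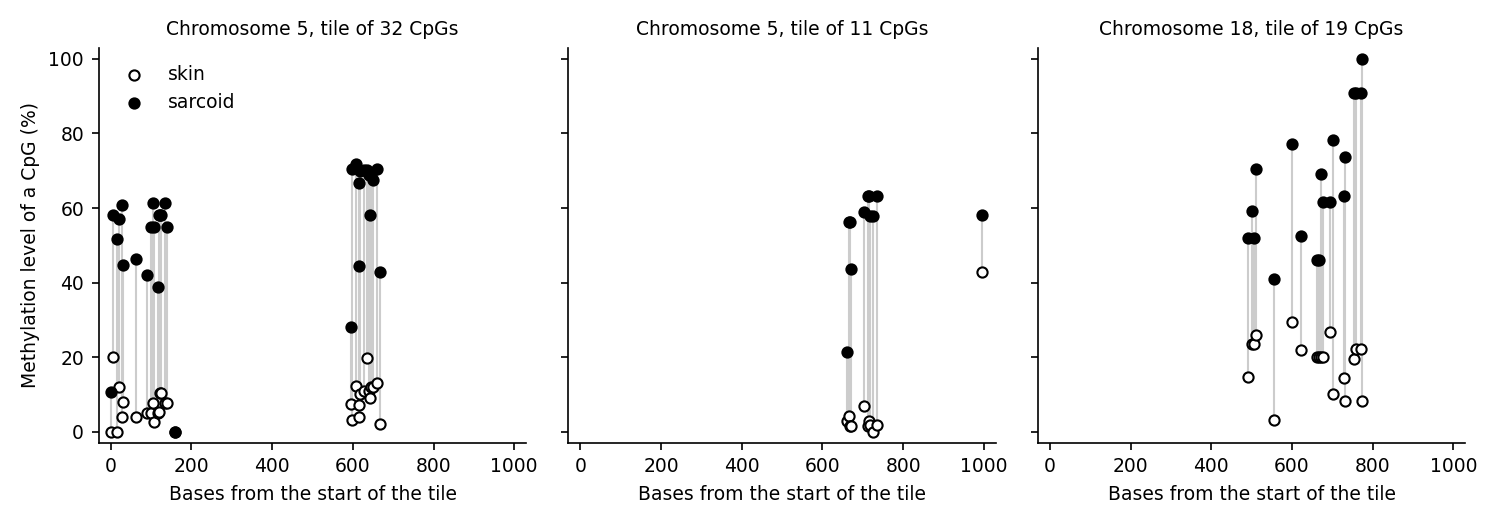
Methylation level of each CpG in percent (y axis) by its distance in bases from the start of its 1 kb tile (x axis) in skin (open circles) and sarcoid (filled circles), for the chromosome 5 tiles of 32 CpGs (from 32270001) and 11 CpGs (ending at 58151000) and the chromosome 18 tile of 19 CpGs (from 12185001). Sarcoid levels lie above skin levels at 31 of 32, 11 of 11 and 19 of 19 CpGs.

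Chromosome 5 had further dense tiles called higher, and each lay in a window with a raised mean, in which its own CpGs count. The tile from 50372001 to 50373000 rose from 12.4% over 1605 reads to 49.1% over 1058 reads, with 33 of 35 CpGs higher, in the window from 50000001 to 51000000, which differed by 5.39 points. The tile from 87222001 to 87223000 rose from 9.57% to 36.4% with 25 of 26 CpGs higher. It closed the longest run of tiles called higher, within 6 kb from 87217001. In that run those from 87217001 and 87218001 went from 4.10% to 30.2% and from 22.6% to 55.0%, while that from 87221001 had 4.65% and 1.86%. The tiles from 87217001 and 87218001 had 53 and 40 sarcoid reads over 4 CpGs each, with 0 CpGs called singly. Their window, from 87000001 to 88000000, differed by 7.10 points, with 9 CpGs called higher and 0 lower. The windows of chromosome 5 with at least 50 CpGs that differed by more than 5 points numbered 3, those ending at 33000000, 51000000 and 88000000, and each held 1 of the 4 dense tiles called higher. These means include the CpGs of those tiles, so the raised windows are not separate support for the tiles. Of these 3 windows, the mean without the dense tile was taken only for that ending at 33000000.

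The largest rises among all called tiles were at sparser positions. On chromosome 5 they were the tiles from 95618001 (32.1% to 84.6%, 3 CpGs), from 7337001 (33.5% over 659 reads to 85.2% over 297 reads, 5 CpGs) and from 96026001 (45.9% to 96.1%, 4 CpGs). The tile of chromosome 18 from 78801001 rose from 30% to 86% over 5 CpGs and that from 44993001 from 36.8% to 87.0% over 3 CpGs, before the dense tile from 12185001 named above. All of these kept their call when a read counted about once. The tile from 78801001 had 50 sarcoid reads over its 5 CpGs, within 55 bases, with 0 CpGs called singly. That from 95618001 had 39 sarcoid reads over its 3 CpGs, within 26 bases, with 2 called singly. Both had enough reads on the minus strand only. The tile from 96026001 had 51 sarcoid reads over its 4 CpGs, and that from 44993001 had 154 over its 3 CpGs.

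Falls reached larger sizes on chromosome 18 than on chromosome 5. The tile of chromosome 18 from 39907001 fell from 90.0% over 30 reads to 21.8% over 156 reads at 3 CpGs, with 10 reads per CpG in skin, and covered to that depth on the plus strand only. The tile from 61197001 fell from 86.9% (interval 81.0 to 91.2) to 19.7% (14.4 to 26.2) at 4 CpGs, each called singly. The tile from 3816001 fell from 82.2% over 191 reads to 15.1% over 93 reads at 7 CpGs. On chromosome 5 the largest falls were in the tiles from 1198001 (67.7% to 10.8%, 6 CpGs), from 5415001 (76.8% to 20.5%, 3 CpGs) and from 35883001 (60.3% to 5.56%, 3 CpGs).

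The longest run of called tiles was a run of falls on chromosome 18 from 3816001 to 3825000. Within these 9 kb, 5 of 7 tested tiles were called lower. After the tile from 3816001, that from 3817001 fell from 53.5% over 568 reads to 8.75% over 423 reads, with 6 of 6 CpGs called. The tile from 3819001 went from 43.3% to 12.8%, that from 3822001 from 80% to 44.8% and that from 3824001 from 91.9% to 63.6%. The tiles between, from 3818001 and 3820001, had 41.6% and 35.1%, and 37.9% and 15.5%, and were not called. Of those called, 3819001 and 3824001 had 3 CpGs each, with no CpG called singly. Their skin and sarcoid reads were 30 and 109, and 62 and 33. Their q-values by Fisher's exact test on summed reads were 0.00322 and 0.00727. In the tile from 3819001, 1 of the 3 CpGs was higher in the sarcoid. The run lies in the window from 3000001 to 4000000, the shallowest of the chromosome, where 1200 CpGs averaged 62.9% in skin against 57.0% in sarcoid, with 74 calls for lower and 7 for higher CpGs. Another run of 3 tiles, from 54618001 to 54622000, fell from 54.8%, 53.0% and 39.7% to 7.25%, 23.1% and 9.86%. On chromosome 5 no run of falls was longer than 2 tiles, and there were 6 of those.

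The dense tiles called lower had between 53.6% and 89.8% methylation in skin. On chromosome 5 the tile from 98721001 fell from 60.7% to 30.3% over 25 CpGs, and that from 98493001 from 89.8% to 64.6% over 27 CpGs. As means over their CpGs these differences were -19.9 and -24.5 points, so neither would be called if that mean also had to reach 25 points. On chromosome 18 the tile from 3868001 fell from 53.6% to 13.3% over 11 CpGs and that from 63830001 from 59.5% to 33.9% over 22 CpGs. Of the tiles of over 20 CpGs with at most 20% in skin, 4 of 308 on chromosome 5 (1.30%) and 2 of 147 on chromosome 18 (1.36%) were called higher, against 30 of 6601 (0.454%) on all chromosomes, these included.

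The methylation difference varied along the chromosomes, and 3 of the 4 ends had a larger one than the part between. The first 5 Mb of chromosome 5 differed by -2.54 points and the last 5 Mb by -1.68, against -0.339 between. On chromosome 18 the first 5 Mb differed by -2.95 points, the last 5 Mb by -0.365 and the part between by -0.928. Skin levels were also higher at the ends, at 45.8% and 56.1% on chromosome 5 against 32.6% between, and at 54.2% and 48.9% against 37.8% on chromosome 18. Most windows differed little: 60 of 89 windows of chromosome 5 and 44 of 66 of chromosome 18 were lower in the sarcoid on average, and the medians over windows were -0.619 and -0.596 points. Among these windows the largest negative differences were -6.01 points from 40000001 and -4.27 from 1000001 on chromosome 5, and -6.98 from 57000001 and -6.49 from 20000001 on chromosome 18. On chromosome 18 their largest positive difference after that of the window from 12000001 was 3.16 points, in the window from 1000001.

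Deeper and shallower windows were compared within each chromosome. On chromosome 5 the 44 windows deeper than the median differed by -0.403 points over their CpGs and the other 45 by -0.946. On chromosome 18 the 33 deeper windows differed by -0.785 points and the 33 others by -1.43. Over windows rather than CpGs the order held on chromosome 5 (medians -0.300 and -0.863 points) and turned on chromosome 18 (-0.806 and -0.281). Mean skin levels were lower in the deeper windows too, at 33.3% and 38.1% on chromosome 5 and 34.5% and 44.5% on chromosome 18, and the part of skin level or CpG number in this was not tested.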

How the data were processed

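Both RRBS libraries were read as single ends of 75 bp, per the labels' protocols. Per the submitters' processing notes, FastQC, BSMAP and methylKit made the files (no versions given). Per the file headers, the authors deposited a read count (coverage) and the percent of C and T for every CpG cytosine, strand by strand. Coverage times that percent, rounded, gave the methylated reads. Beyond the error of a percent with 1 decimal, this product missed a whole number at 0.567% (skin) and 0.543% (sarcoid) of cytosines. Strands of a CpG were summed. CpGs needed 10 reads in each library, and those among the 0.1% with most reads (over 574 in skin or 403 in sarcoid) were left out. The authors' table of tests held chromosome 1 only and was not used here.

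Depth was adjusted by taking off the log2 ratio of the 5 density classes, weighted by reads. Intervals are Wilson 95%. The regions named were, per chromosome, the 3 called tiles of largest rise and fall, the 2 of each among tiles listing over 20 CpGs, the longest runs of called tiles within 5 kb, and, among windows with at least 50 CpGs, the 2 highest and lowest in depth and difference. The other dense tiles called higher, the run from 54618001 and the neighbours of the rises and of the extreme windows were chosen after their values were seen. Members, regions and settings were chosen with earlier results of these data known. The test and the depth ratio were checked on simulated data. Computation used SciPy 1.17.1, pandas 2.3.3, matplotlib 3.10.9, numba 0.67.0 and NumPy 2.4.6 under Python 3.11.15. Alternatives were other read minima, strands, thresholds, tile rules, weights, windows and centring.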

Additional observations from a re-analysis of the deposited data

How the results depend on the processing

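No paired analysis was possible because each tissue had 1 library, and none could be left out. Both depths stayed above 0 under all settings tried. For chromosomes 5 and 18 in turn they were 0.32 and 0.33 at a minimum of 5 reads, 0.28 and 0.28 at 20 reads, 0.27 and 0.28 on the plus strand, 0.30 and 0.32 without adjustment, and 0.23 and 0.24 when set to 0 at the ratio of all reads. For chromosome 5 the depth was 0.31 with the CpGs of most reads kept, 0.29 by the median over CpGs and 0.31 when adjusted for skin level as well, a setting chosen after seeing the data. The lowest window of chromosome 18 was 0.051 in windows of 2 Mb. By the median over CpGs the lowest windows were -0.12 on chromosome 5 and -0.43 on chromosome 18, so that the statement on all windows of chromosome 5 holds for summed reads. In windows with 300 or more CpGs, centred on such windows of the 21 other chromosomes (chosen after seeing the data), the median of chromosome 5 was 0.32.

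The methylation difference of chromosomes 5 and 18 was -0.596 and -1.59 points weighted by reads, and -0.167 and -0.943 points at CpGs with both strands covered and alike, a smaller set. It was -1.68 on chromosome 18 on the plus strand. By density at 20 reads it was -1.86 and -1.26 points in the 2 sparsest classes of chromosome 5, and 0.726 in tiles of 21 to 40 CpGs of chromosome 18. Without the dense tiles called higher (chosen after seeing the data) that class was -0.467 on chromosome 5 and 0.379 on chromosome 18.

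CpGs called lower and higher numbered 182 and 110 on chromosome 5 and 179 and 72 on chromosome 18 on the plus strand, and 162 and 137, and 154 and 101, with both strands covered and alike. At q below 0.05 they were 733 and 492, and 632 and 337. Thinned to 10 reads, where depth limits the test, they were 0 in each direction by Fisher's exact test, with 425 and 292, and 361 and 210, at an unadjusted p below 0.05. At 40 points 129 were higher on chromosome 18. Tiles called lower and higher were 78 and 42, and 77 and 29, with a read counted about once, 56 and 38, and 63 and 26, with 5 or more CpGs, and 25 and 16, and 34 and 8, at 40 points. Fewer reads, CpGs or tiles enter most of these settings. More calls were lower than higher in every one of them that made calls.

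The window of chromosome 5 ending at 33000000 differed by 11.6 points on the minus strand and 1.94 without the tile from 32270001 (chosen after seeing the data). The tile ending at 58151000 could not be computed on the plus strand, where fewer than 3 of its CpGs had 10 reads. The tile from 32270001 kept its call at a minimum of 5 reads, on each strand alone and with a read counted about once. That ending at 58151000 kept its call at 5 reads, with a read counted about once and on the minus strand, which covers 10 of its 11 CpGs. A minimum of 20 reads was not tried for these tiles. In the tile ending at 58151000, 10 CpGs had only 14 to 19 sarcoid reads.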
